A study of Mus musculus with 9 samples.

Results

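The arginine metabolism genes described here are 9 of the 52476 gene symbols in the deposited tables, taken by name: the arginases Arg1 and Arg2, the nitric oxide synthase Nos2, its cofactor and inhibitor enzymes Gch1 and Ddah2, the arginine-making enzymes Ass1 and Asl, the transporter Slc7a2 and the ornithine-using enzyme Oat. Each symbol matched 1 Ensembl gene. They were measured by mRNA sequencing in C57BL/6 mouse dendritic cells that were derived from bone marrow monocytes in 7 days of culture (GM-CSF at 100 ng/mL, IL-4 at 50 ng/mL) and then flow sorted. Of the 9 libraries, 3 are of cells that received both R837 (imiquimod, which activates Toll-like receptor 7) and the polyamine spermidine, 3 of cells that received R837 alone, and 3 of unstimulated control cells. The labels' protocol gives 24 h of interferon α priming followed by 18 h with R837, with or without spermidine. Whether controls were primed too is not stated, so R837 and priming cannot be told apart in comparisons with the control. Below, a gene that R837 raised or lowered is one that differed in that comparison. All groups share the GM-CSF and IL-4 culture. The sources used here give no dose of R837 or spermidine, nor do they say whether replicates were separate cultures or animals, so p-values reflect only how these libraries vary, and that variation may be technical.

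Arginine is the shared substrate of nitric oxide synthase and arginase. Inducible nitric oxide synthase turns arginine into nitric oxide and citrulline, needs tetrahydrobiopterin as a cofactor, and is known as an effector of myeloid cells activated through Toll-like receptors and interferons. Arginase splits arginine into urea and ornithine, which feeds polyamine and proline synthesis, and Arg1 is a well-known interleukin 4 target in mouse macrophages and dendritic cells. Citrulline can be returned to arginine by the enzymes encoded by Ass1 and Asl.

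Values are FPKM as the authors deposited them (fragments by transcript length and by the number mapped), so levels are per length and can be set side by side between genes. Their sum per library lay between 310220 and 326222. The finest step in the low values put the depth of a library between 21200000 and 29200000 units, a 1.38-fold range, where a unit may be a read or a fragment. Among markers of the labelled cell type, Itgax stood between 88.4 and 108 FPKM and H2-Ab1 between 405 and 579, whereas Flt3 did not exceed 0.418 and Cd209a was listed at 0 in every library. R837 replicate 3 stood apart. Its summed erythroid markers (4 genes) came to 1035 FPKM, against 160.0 in R837 replicate 2, 0.0307 in R837 replicate 1 and at most 11.0 in any other library. Its summed neutrophil markers (8 genes) came to 356 FPKM, against 56.4 to 84.0 elsewhere, and its eosinophil markers (3 genes) to 48.2, against 22.3 in R837 replicate 2 and 6.45 to 9.23 elsewhere. Of the eosinophil markers, Prg2 and Epx were highest in R837 replicate 3 (35.8 and 3.41), whereas Siglecf was 8.98 there and 6.45 to 9.35 elsewhere. R837 replicate 2 had 71.6 FPKM of the macrophage marker Adgre1, against 116 to 173 elsewhere. Results were also taken without R837 replicates 2 and 3, and beyond that the part of these transcripts in the results was not tested. In bulk samples, fewer cells of a type and less RNA per cell cannot be told apart.

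**Figure D1:**
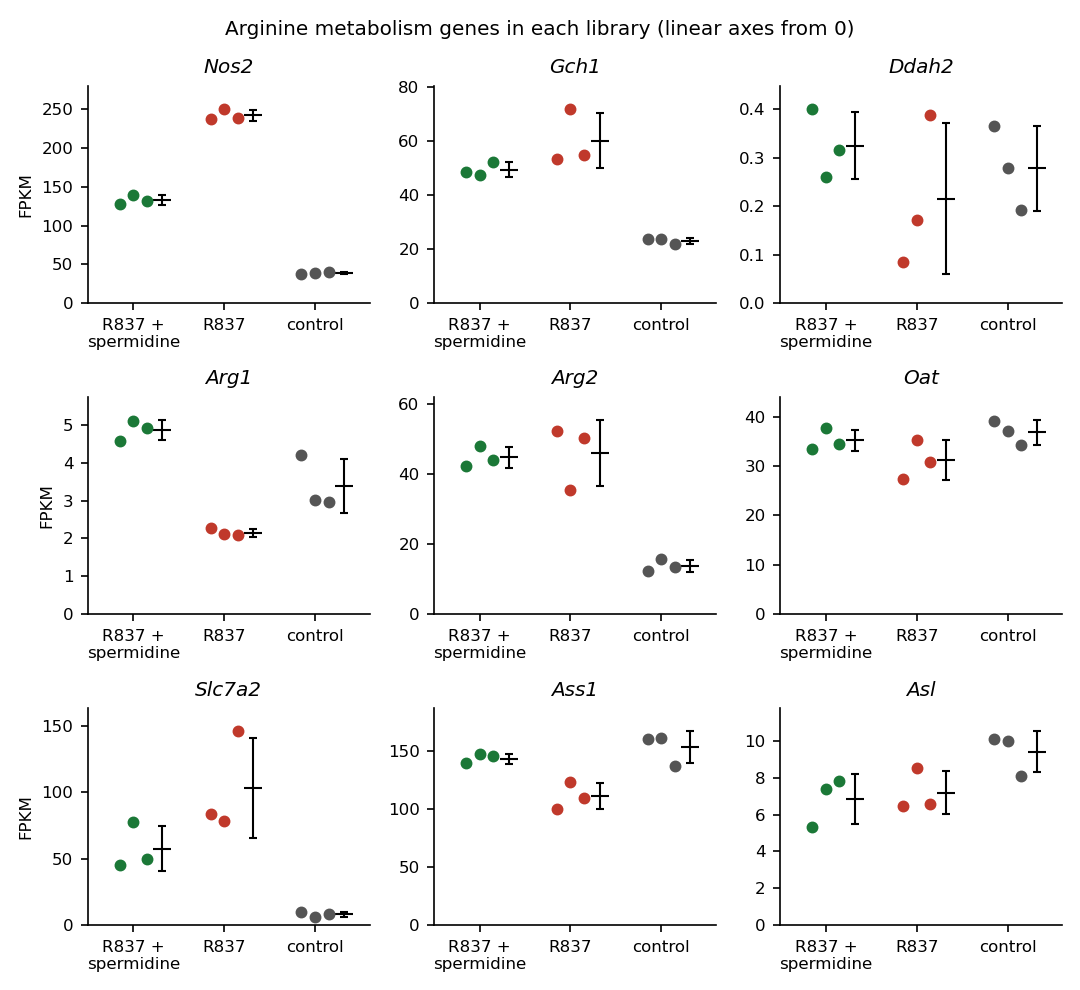
FPKM of the 9 genes in each library (dots) for R837 with spermidine, R837 and control, with the mean and SD of 3 libraries beside them (black). Nos2 ran from 128 to 139.5 with spermidine added, from 238 to 250 with R837 alone and from 37.6 to 39.9 in the controls, and Arg1 was lowest with R837 alone.

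Most of these genes differed between R837 and the control. Of the 8 that reached the filter for testing (FPKM of 1 or more in at least 3 libraries), 4 rose against the control and 2 fell, by limma with an adjusted p under 0.05. Of all 11768 tested genes, 13.6% rose and 29.5% fell, 43.2% in all. The risers were Slc7a2, Nos2, Arg2 and Gch1, the fallers Arg1 and Ass1, and Asl and Oat did not pass. The median log2 change of the 8 was 0.55, and that of all tested genes -0.17. Libraries of the groups did not overlap for 6 of the 8, against 54.0% of all tested genes.

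Nos2 (ENSMUSG00000020826.8, chromosome 11, 78920787 to 78960254, plus strand, GENCODE on GRCm38), the inducible nitric oxide synthase, had 238, 250 and 239 FPKM in R837 libraries, against 37.6, 38.7 and 39.9 FPKM in the controls. Every R837 library lay far above every control. On the log2 scale Nos2 rose by 2.61 ± 0.06 (SE; limma adjusted p = 1.3e-08), and the R837 mean was 6.26 times the control mean. Its mean over the 9 libraries, 138 FPKM, exceeded that of 97.6% of tested genes.

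With spermidine added, Nos2 had 128, 139.5 and 131 FPKM, below all 3 R837 libraries and above all 3 controls. Against R837 alone it fell by 0.86 on the log2 scale (SE 0.06, limma adjusted p = 0.00014), to 0.548 times the R837 mean. Against the control it was still higher, by 1.75 (limma adjusted p = 2e-07), or 3.43 times. All 3 Nos2 calls held under each of the 18 alternatives, with the change against R837 between -0.90 and -0.75.

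Gch1 (ENSMUSG00000037580.9, chromosome 14, 47153895 to 47189413, minus strand) encodes GTP cyclohydrolase, the first enzyme of tetrahydrobiopterin synthesis. It had 53.6, 71.9 and 55.0 FPKM with R837, against 23.8, 23.7 and 21.9 in the controls, a log2 change of 1.33 ± 0.11 (SE; limma adjusted p = 1.8e-05). With spermidine added it had 48.6, 47.4 and 52.5 FPKM, each below the lowest R837 library by a small margin. That difference did not pass, at -0.27 with a 95% interval of -0.52 to -0.01 (limma adjusted p = 0.15), while the rise against the control was 1.06 (limma adjusted p = 9.3e-05). R837 replicate 2, the library with low Adgre1, held the highest Gch1 value.

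RefSeq start-site windows on GRCm38.p6 were at hand for 4 of the 9 genes, Gch1, Ass1, Oat and Ddah2. The 250 bases before the RefSeq start are shown for the riser and the faller among them, Gch1 (chr14:47189414-47189663, minus strand) and Ass1 (chr2:31470020-31470269, plus strand). The GENCODE gene of Ass1 begins at 31470207, so the last bases of its window lie inside that gene. Motif matches on either strand are in capitals.
Gch1: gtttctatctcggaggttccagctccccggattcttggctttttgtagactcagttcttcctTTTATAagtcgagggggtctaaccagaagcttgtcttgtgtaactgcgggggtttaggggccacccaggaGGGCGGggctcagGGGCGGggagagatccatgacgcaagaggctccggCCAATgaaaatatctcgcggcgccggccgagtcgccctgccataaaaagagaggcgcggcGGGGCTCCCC
Ass1: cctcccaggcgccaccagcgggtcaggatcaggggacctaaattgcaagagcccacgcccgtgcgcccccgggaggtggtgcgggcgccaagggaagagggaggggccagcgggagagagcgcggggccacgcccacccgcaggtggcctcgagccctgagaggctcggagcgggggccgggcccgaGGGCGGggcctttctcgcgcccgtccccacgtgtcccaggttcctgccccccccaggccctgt
The motifs searched, on both strands, were the NF-κB consensus, the core of the interferon-stimulated response element, the STAT palindrome TTCNNNGAA and its wider STAT6 form, the TATA box TATAAA, the GC box GGGCGG, the AP-1 site TGACTCA, the CCAAT box and the cyclic AMP response element TGACGTCA, and no matches overlapped in these windows. The Gch1 window held the NF-κB consensus at bases -10 to -1 from the start, TATAAA on the opposite strand at -188 to -183, the GC box at -118 to -113 and at -105 to -100, and the CCAAT box at -70 to -66. The Ass1 window held the GC box at -63 to -58 and none of the others. Over 32851 such windows of the genome, 7.25% held the NF-κB consensus, 12.4% the TATA box, 32.7% the GC box and 33.8% the CCAAT box. The motifs without a match here were held by 2.98% (the interferon element core), 7.02% (the STAT palindrome), 5.85% (the STAT6 form), 4.46% (the AP-1 site) and 1.55% (the cyclic AMP element). A match describes letters and was not tested as a site.

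Ddah2 (ENSMUSG00000007039.12, chromosome 17, 35059035 to 35062095, plus strand), which breaks down the methylarginines that inhibit nitric oxide synthase, was the 1 member below the filter. It had 0.4, 0.261 and 0.315 FPKM with R837 and spermidine, 0.0851, 0.172 and 0.388 with R837, and 0.365, 0.279 and 0.191 in the controls, and the groups overlapped. At the length of its longest annotated transcript (1342 bases) these values amount to between 2.51 and 13.1 of the finest steps. A small difference would not be detectable at this depth, and the size that would be was not tested. In a fit with no filter the limma adjusted p-values of Ddah2 lay between 0.56 and 0.77.

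With R837 the arginase Arg2 rose and Arg1 fell. Arg2 (ENSMUSG00000021125.6, chromosome 12, 79130777 to 79156301, plus strand), the mitochondrial isozyme, had 52.4, 35.3 and 50.3 FPKM with R837, against 12.4, 15.7 and 13.3 in the controls. It rose by 1.65 ± 0.15 on the log2 scale (SE; limma adjusted p = 2.8e-05), 3.33 times as high. With spermidine added it had 42.2, 48.1 and 44.1 FPKM, inside the range of the R837 libraries. The difference from R837 was -0.02 with a 95% interval of -0.35 to 0.32 (limma adjusted p = 0.95), which leaves changes of that size in either direction possible. Its sign was positive, with no call, under quantile normalization and without R837 replicate 1 (0.08), R837 replicate 3 (0.06) or R837 with spermidine replicate 1 (0.02).

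Arg1 (ENSMUSG00000019987.9, chromosome 10, 24915221 to 24927484, minus strand), the cytosolic isozyme, was the scarcer one in every library. It had 2.27, 2.11 and 2.08 FPKM with R837, against 4.21, 3.01 and 2.96 in the controls, a log2 change of -0.47 ± 0.11 (SE; limma adjusted p = 0.0096). Every R837 library lay below every control. The call was lost with quantile normalization (limma adjusted p = 0.074) and without R837 replicates 2 and 3 together (0.097).

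Spermidine was accompanied by more Arg1, not less. With R837 and spermidine Arg1 had 4.57, 5.10 and 4.91 FPKM, above every library of the other groups. Against R837 it rose by 0.89 ± 0.11 on the log2 scale (SE; limma adjusted p = 0.0017), 2.26 times as high, and this call held under every alternative that kept the gene. Against the control it rose by 0.43 (limma adjusted p = 0.013), a call lost without control replicate 2 or 3 (0.055 and 0.053). Control replicate 1 had the highest control value. At its longest annotated transcript (1477 bases) the Arg1 values amount to between 67.6 and 219.9 of the finest steps, fewer than for any other tested member.

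**Figure D2:**
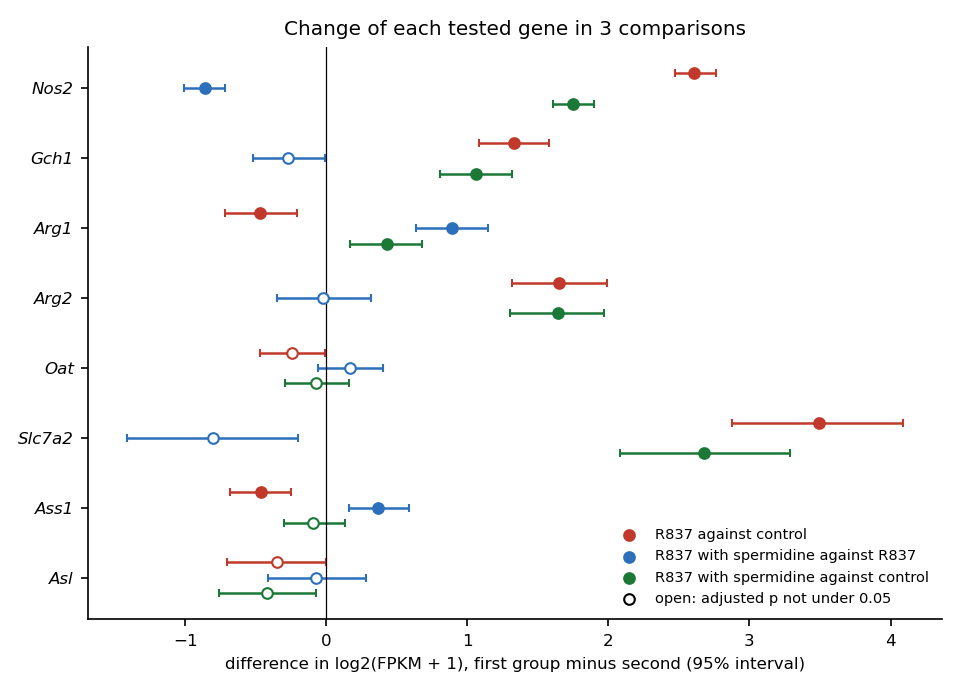
Difference in log2(FPKM + 1) with its 95% interval for the 8 tested genes in 3 comparisons, with filled dots where the limma adjusted p was under 0.05. Nos2 and Arg1 both changed when spermidine was added to R837, in opposite directions (-0.86 and 0.89), while Arg2 stood at -0.02.

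Within each library the balance between the transcripts of these enzymes was read as a ratio of FPKM. Nos2 over the summed arginases was 2.73, 2.62 and 2.67 with R837 and spermidine, 4.35, 6.69 and 4.56 with R837, and 2.27, 2.07 and 2.45 in the controls. The libraries of the 3 groups did not overlap, with R837 alone highest. An exact permutation test on log2 values gave p = 0.1 for each pair of groups, for this ratio and for the Arg2 share below. That is the smallest p that 3 against 3 libraries can give. The ratio of 6.69 belongs to R837 replicate 2, the R837 library with the least Arg2, and the other R837 libraries also lay above both other groups. Arg2 made up 90.2, 90.4 and 90.0% of arginase FPKM with R837 and spermidine, 95.8, 94.4 and 96.0% with R837, and 74.7, 83.9 and 81.8% in the controls. Arg1 was the minor arginase transcript in all 9 libraries, and its share was smallest with R837 alone.

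**Figure D3:**
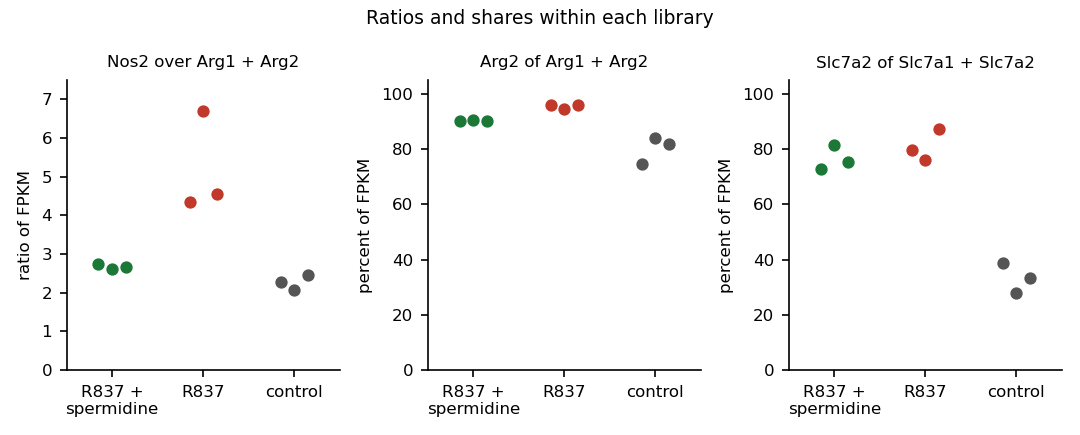
Ratio of Nos2 to Arg1 plus Arg2, share of Arg2 in Arg1 plus Arg2, and share of Slc7a2 in Slc7a1 plus Slc7a2, each from FPKM within a library (dots) for R837 with spermidine, R837 and control. The Nos2 ratio ran from 2.62 to 2.73, from 4.35 to 6.69 and from 2.07 to 2.45 in these groups.

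Slc7a2 (ENSMUSG00000031596.15, chromosome 8, 40862396 to 40922308, plus strand), the cationic amino acid transporter that supplies arginine to activated macrophages, showed the largest change of the 8 tested genes against the control. It had 83.7, 78.3 and 146 FPKM with R837, against 9.51, 6.32 and 8.09 in the controls, a rise of 3.49 ± 0.27 on the log2 scale (SE; limma adjusted p = 1e-05) or 12.9-fold between the means. The value of 146 belongs to R837 replicate 3, the library with high erythroid and neutrophil markers. Without replicates 2 and 3 the rise was 3.25 (limma adjusted p = 0.00031).

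With spermidine added Slc7a2 had 45.5, 77.3 and 49.9 FPKM. These lay below the R837 libraries, though the 77.3 of replicate 2 was close to the lowest of them. The difference of -0.80 (95% interval -1.41 to -0.20) did not pass (limma adjusted p = 0.082), nor did it under any of the 18 alternatives (0.059 to 0.30). Against the control the gene was higher by 2.68 (limma adjusted p = 6.9e-05), 7.22 times.

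The second transporter of this kind, Slc7a1, is the constitutive one in many cells. It had 21.6, 24.7 and 21.5 FPKM with R837, against 15, 16.4 and 16.3 in the controls, a rise of 0.48 (limma adjusted p = 0.0012). With spermidine added it had 17.1, 17.8 and 16.5 FPKM, lower than R837 by 0.38 on the log2 scale (limma adjusted p = 0.016; 0.070 without R837 with spermidine replicate 3, 0.057 in a fit of these 6 libraries alone and 0.080 without R837 replicates 2 and 3). Slc7a2 made up 72.7, 81.3 and 75.2% of their summed FPKM with R837 and spermidine, 79.5, 76.0 and 87.2% with R837, and 38.8, 27.8 and 33.2% in the controls, so the more abundant transporter transcript was Slc7a2 in both treated groups and Slc7a1 in the controls.

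Ass1 (ENSMUSG00000076441.9, chromosome 2, 31470207 to 31520672, plus strand), argininosuccinate synthase, was among the most abundant of the 9 in all groups. It had 99.8, 123 and 109.6 FPKM with R837, against 159.8, 161 and 137 in the controls, a log2 change of -0.46 ± 0.10 (SE; limma adjusted p = 0.0041) that held under all 18 alternatives (-0.64 to -0.28). With spermidine added it had 139, 147 and 145 FPKM, above every R837 library and within the control range. That rise of 0.37 against R837 passed by a small margin (limma adjusted p = 0.034). The adjusted p rose above 0.05 when control replicate 1 (0.052), control replicate 2 (0.053), R837 replicate 1 (0.090), R837 replicate 3 (0.064) or any library with spermidine (0.062, 0.10 and 0.10) was left out, with no filter (0.073) and in a fit of these 6 libraries alone (0.072). Against the control the difference was -0.09 (95% interval -0.30 to 0.13, limma adjusted p = 0.48).

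Asl (ENSMUSG00000025533.15, chromosome 5, 130011258 to 130029247, minus strand), argininosuccinate lyase, was lower in level than Ass1 in every library. It had 5.31, 7.38 and 7.85 FPKM with R837 and spermidine, 6.48, 8.52 and 6.55 with R837, and 10.1, 10.0 and 8.12 in the controls. Neither treated group passed against the control, at -0.42 (limma adjusted p = 0.0501) with spermidine and -0.35 (0.094) without. Without R837 replicate 2 both passed (0.032 and 0.037), and the first also passed without control replicate 3 (0.043), R837 with spermidine replicate 3 (0.042) or R837 replicates 2 and 3 (0.045), with a mean FPKM of at least 5 (0.049) and in a fit of the 2 groups compared (0.046). Between the treated groups the difference was -0.07 (95% interval -0.41 to 0.28).

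Oat (ENSMUSG00000030934.9, chromosome 7, 132557478 to 132576398, minus strand), ornithine aminotransferase, leads ornithine toward proline and glutamate. It had 33.5, 37.6 and 34.4 FPKM with R837 and spermidine, 27.4, 35.3 and 30.9 with R837, and 39.2, 37.0 and 34.3 in the controls, and each pair of groups overlapped. R837 against control gave -0.24 (95% interval -0.47 to -0.01, limma adjusted p = 0.086), which passed without R837 replicate 2 (-0.33, 0.014) and without R837 replicates 2 and 3 (-0.41, 0.019). The difference of R837 with spermidine was 0.17 from R837 and -0.07 from the control. Oat varied least of the tested members over the 9 libraries, with a root mean square deviation of 0.14 from its own mean of log2(FPKM + 1).

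The order of the members changed with treatment. With R837 and spermidine Ass1 (mean 143 FPKM) and Nos2 (133) came first with overlapping libraries, followed by Slc7a2, Gch1 and Arg2, whose neighbours overlapped. With R837 alone Nos2 stood first at 242 FPKM, clear of Ass1 (111) and Slc7a2 (103), which overlapped. In the controls Ass1 stood alone at 153 FPKM, Nos2 (38.7) and Oat (36.8) overlapped, and Slc7a2 (7.98) ranked seventh, overlapping Asl. Arg1 and Ddah2 were the lowest in all 3 groups.

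In the comparison of R837 with spermidine against R837, 2 of the 8 tested members rose (Arg1 and Ass1) and 1 fell (Nos2). Of all tested genes 5.60% rose and 8.0% fell, 13.6% in all. Libraries did not overlap for 5 of the 8, against 32.9% of all tested genes. The medians of the 8 and of all genes were -0.04 and -0.02. Against the control, R837 with spermidine had 5 of the 8 higher (Slc7a2, Nos2, Arg2, Gch1 and Arg1) and 0 lower by limma, where 14.1% of all genes rose and 32.7% fell, 46.8% in all. The median change was 0.75 for the 8 and -0.17 for all genes. At an unadjusted p under 0.05 1 member, Asl, was lower there. Libraries did not overlap for 6 of the 8, against 62.9% of all tested genes. These comparisons share their R837 or control libraries, so they are not independent of each other.

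The other genes of the pathway were taken from 9 lists with 72 genes, of which 50 reached the filter. R837 against control gave 6 higher and 20 lower, with a median log2 change of -0.27. Among all tested genes 13.6% rose and 29.5% fell there, with a median of -0.17. R837 with spermidine against R837 gave 3 higher and 4 lower, with a median of -0.06. There 5.60% of all tested genes rose and 8.0% fell, 13.6% in all, with a median of -0.02. R837 with spermidine against control gave 6 higher and 22 lower, with a median of -0.29. In that comparison 14.1% of all tested genes rose and 32.7% fell, with a median of -0.17. The lower counts against the control were 9 and 10 with median-of-ratios scaling, which raises the median change of all genes by 0.15 and 0.16. Without R837 replicates 2 and 3 the counts were 2 higher and 13 lower, 4 and 0, and 6 and 28. When 1 library was left out they ran from 3 to 6 higher and 14 to 21 lower, from 2 to 5 and 1 to 5, and from 5 to 8 and 14 to 27. The 3 higher came without control replicate 3, the 1 lower without R837 with spermidine replicate 3, the 5 higher without R837 replicate 2, and both values of 14 without control replicate 2.

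**Figure D4:**
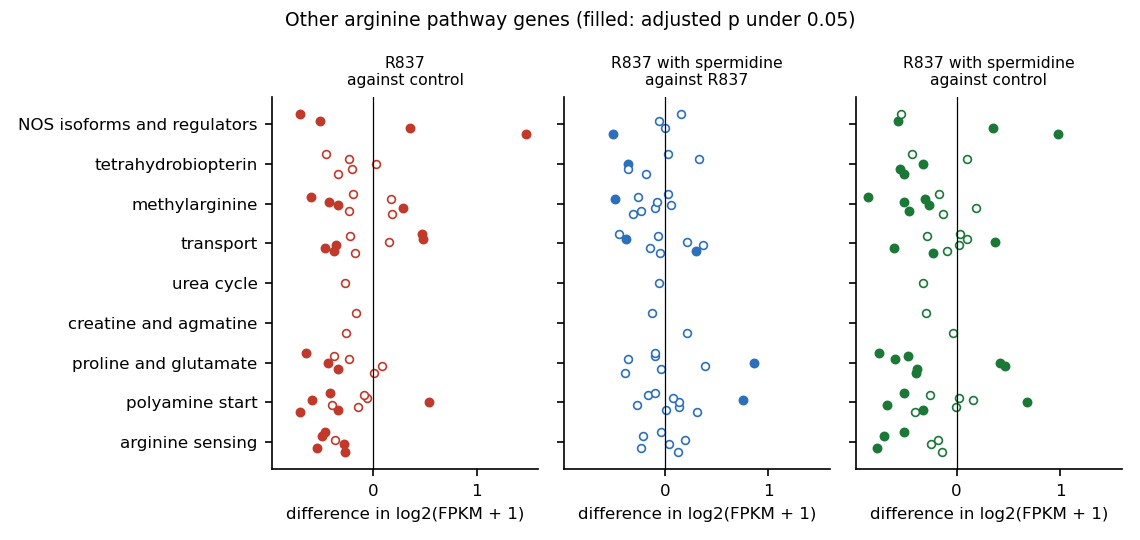
Difference in log2(FPKM + 1) of the 50 tested genes of the 9 pathway lists (dots, by list) in 3 comparisons, with filled dots where the limma adjusted p was under 0.05. Against R837 alone 7 dots are filled, 3 to the right of 0 and 4 to the left, where 13.6% of all tested genes were called.

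Nos2 was the abundant nitric oxide synthase transcript. Nos1 did not exceed 0.0168 FPKM in any library and Nos3 not 0.0377. Of 4 tested regulators of nitric oxide synthases, whose action on Nos2 was not tested, R837 raised 2 (Dynll1 and Cav1) and lowered 2 (Nosip and Nostrin). Leaving out any 1 control library or R837 replicate 1 gave 1 and 1, since the calls of Dynll1 (0.36, limma adjusted p = 0.038) and Nostrin (-0.71, 0.025) were lost there. Among all tested genes R837 raised 13.6% and lowered 29.5%. Over all alternatives Dynll1 passed in 10 of 18 and Nostrin in 12 of 18, and Cav1 passed in 18. Cav1, caveolin, had 14.4, 11.8 and 12.9 FPKM with R837, against 4.96, 3.16 and 4.06 in the controls, a rise of 1.48 (limma adjusted p = 2.6e-05). With spermidine added it had 9.52, 8.48 and 8.65 FPKM and was lower than R837 by 0.50 on the log2 scale (0.037), a call lost on leaving out any 1 of 6 libraries, control replicate 3 (0.058), R837 replicates 1 and 3 (0.10 and 0.066) and the 3 with spermidine (0.062, 0.12 and 0.11), or R837 replicates 2 and 3 together (0.089), and with no filter (0.085). Nosip, which binds nitric oxide synthase, fell to 10.6, 13.9 and 11.6 FPKM with R837, against 17.0, 18.3 and 17.1 in the controls (-0.51, limma adjusted p = 0.0023).

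Of 5 other tested genes of tetrahydrobiopterin metabolism 0 were called for R837 against control by limma, where 2 had an unadjusted p under 0.05, and 0 were higher and 3 lower with R837 and spermidine against control. Of all tested genes 13.6% and 14.1% rose in these comparisons, so few of 5 would be higher at that share. The shares that fell were 29.5% and 32.7%. The count of 3 was 0 without control replicate 3, 1 without control replicate 1, control replicate 2 or R837 with spermidine replicate 3, and 1 with no filter, median-of-ratios scaling or quantile normalization. Pts, the second enzyme of the route, had 1.59, 1.74 and 1.29 FPKM with spermidine, 2.10, 2.13 and 2.56 with R837, and 2.14, 2.19 and 2.25 in the controls. It fell against R837 by 0.36 on the log2 scale (limma adjusted p = 0.042). That call was lost on leaving out any 1 library other than R837 replicate 2 (0.064 to 0.14), without R837 replicates 2 and 3 (0.22), with no filter (0.098), in a fit of the 2 groups compared (0.11) and with the replicate number as a block (0.083), and it held in 5 of 17 alternatives.

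Of 8 tested methylarginine genes, which include the protein arginine methyltransferases whose products release the inhibitors of nitric oxide synthase, R837 raised 1 and lowered 3, against 0 and 1 without R837 replicates 2 and 3 and 2 and 1 with median-of-ratios scaling or quantile normalization. Among all tested genes R837 raised 13.6% and lowered 29.5%. The 1 riser of the list, Prmt2, was lost without control replicate 1, control replicate 3 or R837 replicate 1. Prmt7 had 1.04, 1.11 and 1.11 FPKM with R837, against 2.18, 2.25 and 2.05 in the controls (-0.60, limma adjusted p = 0.00071). Prmt6 had 3.90, 4.19 and 3.96 FPKM with spermidine added, against 5.41, 6.47 and 6.15 with R837 (-0.48, limma adjusted p = 0.0060; 0.064 without R837 replicates 2 and 3). It was the 1 gene of the list called when spermidine was added, where 13.6% of all tested genes were called.

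Glul, glutamine synthetase, had 44.7, 40.6 and 43.4 FPKM with R837 and spermidine, 24.1, 25.6 and 20.1 with R837, and 33.0, 31.8 and 30.8 in the controls. The groups did not overlap, and Glul fell with R837 (-0.44, limma adjusted p = 0.0047; 0.057 with median-of-ratios scaling) and was higher with spermidine than with R837 (0.86, 0.00083) and than in the control (0.42, 0.0060). Of 7 tested genes of the proline and glutamate list it was the only one called between the treated groups, against 3 lower with R837 and 2 higher and 5 lower with both agents against control. The 5 were 3 without control replicate 1 or R837 with spermidine replicate 1 or 2, and 2 with median-of-ratios scaling or quantile normalization. Over all tested genes 13.6% were called between the treated groups and 29.5% fell with R837. With both agents against control 14.1% rose and 32.7% fell.

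On the polyamine side, Odc1, ornithine decarboxylase, had 56.3, 75.9 and 62.7 FPKM with R837 and spermidine, 53.0, 57.7 and 65.3 with R837, and 41.9, 41.0 and 36.8 in the controls. Both treated groups were higher than the control (0.68 and 0.54, limma adjusted p = 0.0018 and 0.0062; the second 0.089 without R837 replicates 2 and 3). They overlapped each other. Sat1, which acetylates spermidine and spermine for export or breakdown, had 64.3, 60.7 and 67.6 FPKM with spermidine added, against 41.6, 31.8 and 40.5 with R837 (0.75, limma adjusted p = 0.0024), and 59.5, 55.3 and 56.6 in the controls. R837 against control gave -0.59 for Sat1 (limma adjusted p = 0.0018) and -0.71 for Amd1 (0.0093).

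Of 6 tested genes of arginine sensing and charging, R837 lowered 5 and raised 0, where 29.5% of all tested genes fell and 13.6% rose. The count of lower genes was 2 with median-of-ratios scaling and without R837 replicates 2 and 3, 3 with quantile normalization, TPM, no filter or a fit of the 2 groups, and 3 without R837 replicate 1, control replicate 2, control replicate 3 or R837 with spermidine replicate 1. Slc38a9, the lysosomal arginine sensor, had 0.878, 0.841 and 1.02 FPKM with R837, against 1.77, 1.57 and 1.61 in the controls (-0.47, limma adjusted p = 0.0037). Castor1, the cytosolic sensor, had 2.08, 2.05 and 1.71 FPKM, against 4.0, 2.78 and 3.13 (-0.54, 0.0051; 0.060 without R837 replicates 2 and 3). Between the treated groups limma called 0 of the 6, of which 0 had an unadjusted p under 0.05, although Rars2 passed without R837 replicate 2 (0.014). In that comparison 13.6% of all tested genes were called. In the urea cycle list Cps1 and Otc, the first liver enzymes, did not exceed 0.0157 and 0.0653 FPKM, and the 1 tested gene, Nags, was not called in any comparison. Of 8 further transport genes tested R837 raised 2 (Slc7a1 and Slc7a7) and lowered 3 (Slc3a1, Slc25a12 and Slc25a13). Among all tested genes the shares raised and lowered were 13.6% and 29.5%. The call of Slc7a7 was lost without control replicate 3 (0.068), R837 replicate 3 (0.060) or R837 replicates 2 and 3 (0.26), and with quantile normalization 1 gene was lower. Neither of the 2 tested creatine and agmatine genes was called in any comparison.

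Genes with the most similar course over the 9 libraries were found from the root mean square difference between log2(FPKM + 1) values centred per gene, among genes with a mean FPKM of at least 5. The nearest to Nos2 were Hcar2, a receptor for hydroxybutyrate and niacin (difference 0.07, against 1.09 for the spread of Nos2 about its own mean), Nfkbie, an inhibitor of NF-κB (0.10), and Sdc4, a syndecan (0.11). The nearest to Arg1 were Bnip3, Rmc1 and Glul, each at 0.13 against a spread of 0.38. The nearest to Arg2 were Cers6 and Sept11 (0.13) and the interferon-induced gene Ifit1 (0.14), against 0.79, those to Gch1 Sh3tc1, Itga5 and Ccdc88b (0.06 to 0.07, against 0.59). For Slc7a2 the differences were larger, and so was its spread of 1.53. Its nearest were Icosl, a co-stimulatory ligand, at 0.30, Mefv at 0.33 and Apol7c at 0.35.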

How the data were processed

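Polyadenylated RNA was sequenced in 9 libraries, in 3 groups of 3 taken from the treatment labels. The deposited values are FPKM per gene, per the file headers. HISAT2, StringTie, mm8 and mm10 are named without versions or roles, per the submitters' processing notes. The sources used here name no annotation, filter or pooling. Versions were stripped from the 52550 identifiers, symbols came from GENCODE mouse release 21 (99.7% matched), and identifiers sharing 1 of 73 symbols were added up. All 37 mitochondrial genes were listed at 0, so a 0 need not mean absence.

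The 11768 genes that reached 1 FPKM in 3 or more libraries were tested on log2(FPKM + 1), so folds of low genes are understated, with limma 3.58.1 in R 4.3.3 (trended eBayes, 1 fit of all libraries, 3 contrasts, two-sided, Benjamini-Hochberg over all tested genes). The fit was tested on simulated data. FPKM holds no counts, so no count test was run. Depth steps were read from genes with 1 transcript, where 38.8 to 43.5% of low values lay within 0.1 of a whole step, against 20% for evenly spread values. Steps may be reads or fragments, and step counts carry counting error only.

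Alternatives were a pseudocount of 0.1, no filter, a mean FPKM of at least 5, TPM, median-of-ratios scaling, quantile normalization, a fit of the 2 groups compared, a replicate block and leaving out each library. Leaving out R837 replicates 2 and 3 together was chosen after seeing the data. The members and lists were chosen with earlier results of these data known. Each member is described, and up to 4 called genes of each pathway list with the largest changes could be named, a selection of which is given. Nos1, Nos3, Cps1, Otc, Nags, the named interleukin 4 companions and the marker genes were chosen after their values were seen.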

Additional observations from a re-analysis of the deposited data

How the results depend on the processing

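No arginine gene called in a comparison turned direction under any of the 18 alternatives. Calls of the 9 arginine genes that were lost or gained are given beside each gene above. Across the alternatives 4 members rose with R837 against control in each. The count that fell was 1 with a mean FPKM of at least 5, which drops Arg1, 1 with quantile normalization, and 2 to 4 when 1 library was left out, the 4 without R837 replicate 2. Between the treated groups the count that rose was 1 with no filter, with a mean of at least 5 and in the fit of the 2 groups compared, and 1 to 2 when 1 library was left out. For both agents against control the count that fell was 1 with a mean of at least 5, in the fit of the 2 groups, and without R837 replicates 2 and 3, and 0 to 1 when 1 library was left out. Over all genes, 3477 fell with R837 against control, against 1842 with a mean of at least 5 and 1941 with median-of-ratios scaling, and 3850 fell with both agents against control, against 2021 and 2168. Between the treated groups 659 rose and 942 fell, against 301 and 456 in the fit of the 2 groups, 417 and 394 without R837 replicates 2 and 3, and 278 to 735 and 456 to 905 when 1 library was left out. The lowest counts came without R837 with spermidine replicates 2 (278) and 3 (456). Of called genes, 31.6% rose with R837 against control, against 52.4% with median-of-ratios scaling and 43.6% with quantile normalization, and 30.1% with both agents against control, against 52.5% and 43.8%. Fewer tested genes or libraries enter some of these fits. Otherwise the cause was not tested. Signs that turned were of differences with no call. Between the treated groups Arg2 was 0.02 with quantile normalization and -0.19 to 0.08 when 1 library was left out, Asl 0.05 without R837 replicates 2 and 3 and -0.16 to 0.08, Nosip 0.10 and -0.14 to 0.04, and Tgm2 0.02 and -0.15 to 0.01. Dynll1 was 0.01 with median-of-ratios scaling, 0.00 with quantile normalization and -0.14 to 0.10 when 1 library was left out. On leaving out 1 library Nostrin ran from -0.10 to 0.39, Pycrl from -0.20 to 0.03, Slc38a9 from -0.10 to 0.00, and Castor2 from -0.02 to 0.08. Both agents against control gave Ass1 0.11 and Oat 0.13 with median-of-ratios scaling, Slc25a12 0.08 with it and 0.07 with quantile normalization, and Slc7a7 -0.07 to 0.11 when 1 library was left out. R837 against control gave Pts -0.04 without R837 replicates 2 and 3 and -0.03 to 0.06 when 1 library was left out. Correlations of same-numbered deviations lay between -0.0912 and 0.159 over 9 pairs, and not every sample correlated best with its own number. These values show no shared effect of replicate number and cannot tell whether the samples were paired. With the replicate block 1541 genes rose and 3272 fell with R837 against control, 470 and 661 between the treated groups, and 1607 and 3638 with both agents against control, and the block changed no call of the 9 arginine genes. Depth limits Ddah2 most.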

Other observations

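Genes that often accompany Arg1 in the interleukin 4 response did not share a direction. Of 11 tested, R837 raised 5 (Ccl17, Ccl22, Socs2, Cish and Tgm2) and lowered 3 (Mrc1, Mgl2 and Clec7a) against the control. R837 with spermidine against R837 gave 1 higher (Mrc1) and 3 lower (Ccl17, Ccl22 and Socs2). Among all tested genes 43.2% were called either way in the first of these comparisons and 13.6% in the second. The count of higher genes in the second comparison was 4 without R837 replicate 2, 3 without R837 replicate 3 and without both, and 0 when any of the other 7 libraries was left out. Ccl17, a chemokine of dendritic cells, had 33.5, 29.8 and 39.2 FPKM with R837 and spermidine, 57.4, 71.3 and 58.6 with R837, and 20.5, 25.6 and 23.9 in the controls. Its change was opposite in sign to that of Arg1 in both comparisons, 1.38 for R837 against control (limma adjusted p = 3.4e-05) and -0.85 when spermidine was added (0.0038). Ccl22, of the same family, had 166, 166 and 170.2 FPKM with R837 and spermidine, 218, 203 and 214 with R837, and 76.4, 74.8 and 82.8 in the controls (1.43 and -0.34, limma adjusted p = 4.3e-07 and 0.012). Others had the sign of Arg1 in both. Mrc1, the mannose receptor, had 48.1, 54.2 and 50.8 FPKM with R837 and spermidine, 38.7, 30.1 and 42.1 with R837, and 54.3, 57.2 and 53.2 in the controls (-0.57 and 0.47, limma adjusted p = 0.0039 and 0.031). Clec7a, the receptor dectin-1, changed by -1.03 with R837 (0.0056) and differed by 0.68 when spermidine was added, which did not pass (0.078). Chil3, a chitinase-like protein, differed by -0.74 and 0.91 and passed in neither (0.10 and 0.11). For Mrc1, Clec7a and Chil3 the lowest value of all libraries was in R837 replicate 2, the library with low Adgre1.

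Genes listed for handling and early response, among them Fos, Jun, Junb, Egr1 and Dusp1, moved with the groups as well. Of 10 tested, R837 against control gave 4 higher and 3 lower. R837 with spermidine against R837 gave 3 higher and 5 lower. Among all tested genes 43.2% were called either way in the first of these comparisons and 13.6% in the second. The part of the handling and early response genes in the results for the arginine genes was not tested.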
